A study of Rattus norvegicus with 6 samples.

Results

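The chaperones of the endoplasmic reticulum (ER) lumen were examined in the rat osteosarcoma line UMR106-01, whose cells resemble osteoblasts, with and without the serine protease inhibitor AEBSF. The 10 genes Hspa5, Hyou1, Dnajb9, Dnajb11, Dnajc3, Sdf2l1, Manf, Hsp90b1, Calr and Canx were chosen by function, with earlier results of these data known. They were found as the probe sets whose platform annotation gives exactly 1 gene symbol equal to one of these names. This gave 13 probe sets of 31042 on the array, for 10 of 14218 genes with a probe set of exactly 1 symbol. Hyou1 has 2 such probe sets, Canx has 3 and each other gene has 1.

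All cultures grew in medium with 10% fetal bovine serum and were re-fed at 64 h with 6.5 mM beta-glycerol phosphate, a phosphate donor for mineral. The mineralizing group, 3 cultures, received nothing else, and the AEBSF group, 3 cultures, also received 400 µM AEBSF in the same medium. RNA was taken at 76 h from both groups, after 12 h of treatment, and each culture gave 1 Affymetrix array. The series compares the groups to ask which transcripts differ when a compound that blocks mineralization is present. All 6 cultures are of 1 tumour-derived line.

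Proteins made for secretion enter the ER unfolded. Hspa5 (BiP), the Hsp70 chaperone of the ER, holds exposed hydrophobic stretches in cycles of ATP binding and hydrolysis. J-domain proteins hand it clients and start hydrolysis, and exchange factors release the nucleotide. Hsp90b1 (GRP94) acts later on selected clients, and the lectins calnexin (Canx) and calreticulin (Calr) hold glycoproteins through their trimmed sugar. When unfolded protein accumulates, the unfolded protein response raises many of these genes. One of its arms, the membrane-bound factor ATF6, is freed by site-1 protease and then site-2 protease; the first belongs to the serine proteases, the class AEBSF targets. Osteoblasts carry a heavy secretory load because they make collagen in bulk.

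ATF6 and its partner NF-Y are known to bind the ER stress response element, CCAAT and CCACG with 9 free bases between them, and a shorter form, ATTGG and CCACG with 1 free base between them, called element II. Both were searched as exact letters on both strands in RefSeq promoter windows of assembly GRCr8, each from 250 bases before to 50 bases after a gene start. The table held windows for 9 of the 10 genes (Manf was not analysed here). Of these 9, 5 held the full element and 2 others held element II. Among all 27457 genes listed there, 21 (0.0765%) held the full element and 17 (0.0619%) held element II. The matches are matches of sequence, and binding was not measured. A later paragraph sets them beside the log2 fold changes. The genes were chosen as ER chaperones, many of which the unfolded protein response raises. Matches to elements of that response are therefore not independent of the choice of genes. Letters run 5′ to 3′ on the gene's strand and stop at the gene start. The fixed letters of the element are in capitals, and its free letters and 15 flanking bases are in lower case.
Hspa5: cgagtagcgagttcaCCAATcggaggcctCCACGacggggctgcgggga
Hsp90b1, farther site: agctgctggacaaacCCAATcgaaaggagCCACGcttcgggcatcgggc
Hsp90b1, nearer site: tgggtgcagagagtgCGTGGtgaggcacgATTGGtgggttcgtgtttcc
Canx: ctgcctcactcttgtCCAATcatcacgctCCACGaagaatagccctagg
Calr: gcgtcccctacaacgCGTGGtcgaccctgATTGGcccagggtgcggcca
Dnajc3: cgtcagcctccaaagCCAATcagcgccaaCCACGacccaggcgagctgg
Hyou1, farther site: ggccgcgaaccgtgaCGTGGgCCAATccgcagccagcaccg
Hyou1, nearer site: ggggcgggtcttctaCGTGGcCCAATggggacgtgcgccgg
Dnajb11: atgtcccaggcggcgATTGGcCCAC

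On GRCr8 these stretches lie at chr3:38452958-38453006 (plus strand, Hspa5), chr7:23012436-23012484 and chr7:23012332-23012380 (minus strand, Hsp90b1), chr10:35158054-35158102 (minus strand, Canx) and chr19:40213120-40213168 (plus strand, Calr). The others lie at chr15:102432519-102432567 (plus strand, Dnajc3), chr8:53602679-53602719 and chr8:53602779-53602819 (plus strand, Hyou1) and chr11:91672801-91672825 (minus strand, Dnajb11). All are in the promoter window upstream of the annotated start. The first letter of the Hspa5 element lay at -43 from the gene start, those of Hsp90b1 at -176 and -72, and that of Dnajc3 at -133. The elements of Canx and Calr were at -230 and -232, near the far edge of the window. The Hyou1 sites began at -188 and -88 from the first of its 2 RefSeq starts. The element of Dnajb11 began at -10, and its last letter, G, is the first base of the gene. The core of another known element of this response, TGACGTGG, occurred among these genes in Hyou1 alone, at -191, where it shares the letters CGTGG with the farther site. It occurred in 187 of all 27457 genes (0.681%).

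No exact match to any of these elements was found in the windows of Sdf2l1 and Dnajb9. The 250 bases upstream of Sdf2l1 (GRCr8 chr11:97376628-97376877, plus strand) are shown because Sdf2l1 had the largest fall of the 10 genes. Capitals mark CCAAT on either strand, the letters of the element that NF-Y contacts.
Sdf2l1: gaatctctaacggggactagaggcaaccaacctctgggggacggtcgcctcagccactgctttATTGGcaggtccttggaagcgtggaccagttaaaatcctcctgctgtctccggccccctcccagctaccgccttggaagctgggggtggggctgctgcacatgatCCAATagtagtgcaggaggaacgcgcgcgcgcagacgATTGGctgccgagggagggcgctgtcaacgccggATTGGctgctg
CCAAT occurred 4 times in this stretch. It occurred on either strand in all 9 windows and in 10873 of all 27457 genes (39.6%), so it is common. CCAAT alone was searched after the values had been seen.

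With AEBSF, most ER chaperone transcripts fell by modest amounts. In a limma fit over all tested probe sets, 7 of the 10 genes fell at an adjusted p of 0.05, 0 rose and 3 did not pass. Over all 9864 tested genes 9.22% were called lower and 7.09% were called higher. The falls ran from 1.54-fold for Sdf2l1 to 1.22-fold for Manf, and the median log2 fold change of the 10 genes was -0.33, against 0.002 for all tested genes. All 13 probe sets passed the filter on dim signals, and 9 of the 13 fell and 0 rose, against 7.41% lower and 5.99% higher over all 18625 tested probe sets. In 8 of the 10 genes the 3 AEBSF signals all lay below the 3 mineralizing signals, an order found in 19.1% of all tested genes. The exceptions were Hspa5 and Dnajb9. In RNA from whole cultures, fewer expressing cells and less RNA per cell cannot be told apart. With a constant variance prior 2 genes fell, Dnajc3 and Sdf2l1 (limma adjusted p = 0.0358 and 0.0227), and without mineralizing culture 1 the count was 5. Scaled to the hybridization controls, 9 of the 10 genes fell, while the median of all genes moved from 0.002 to -0.14, so a change here means a change against the rest of the array.

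**Figure D1:**
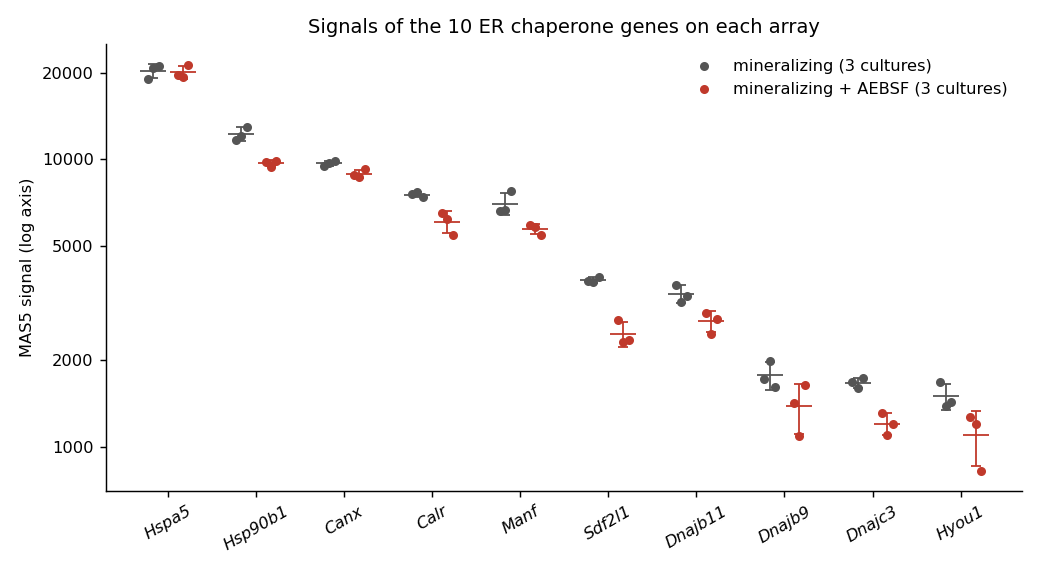
MAS5 signal (log axis) of the brightest probe set of each of the 10 genes on each array; points are cultures, and bars are the mean and SD of 3 mineralizing (grey) and 3 AEBSF (red) cultures. The groups overlap for Hspa5 and Dnajb9 and lie apart for the other 8 genes, with Sdf2l1 the widest apart on this axis; levels of different probe sets cannot be ranked against each other.

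Hspa5, the central chaperone, showed no difference that could be resolved. Its signals were 19067, 20799 and 21081 in the mineralizing cultures and 19604, 19362 and 21241 with AEBSF. Both the highest and the second lowest of the 6 values came from AEBSF cultures, so the groups overlapped fully. The log2 fold change was -0.017 (SE 0.060, limma adjusted p = 0.882), with a 95% interval from -0.147 to 0.112. The median of the 10 genes, -0.33, lies outside that interval. Its sign changed without mineralizing culture 2 or 3, or AEBSF culture 2 (0.00022, 0.0099 and 0.0078).

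Hyou1 (GRP170), a large Hsp70 relative that exchanges nucleotide on Hspa5, was lower with AEBSF on both of its probe sets. The brighter one read 1683, 1390 and 1440 in the mineralizing cultures and 1267, 1206 and 827 with AEBSF (log2 fold change -0.47, with SE 0.136, limma adjusted p = 0.0400). AEBSF culture 3 stood well below the other AEBSF cultures there. The dimmer one read 479, 407 and 483 against 359, 304 and 356, without that low value (-0.43, with SE 0.112, limma adjusted p = 0.0282). The falls on the 2 probe sets did not differ detectably (difference 0.04, two-sided exact permutation p = 1). The brighter probe set did not pass when any of mineralizing cultures 1, 2 and 3 or AEBSF culture 3 was left out (limma adjusted p = 0.146, 0.0619, 0.0767 and 0.0586). With AEBSF culture 3 left out its log2 fold change was -0.28.

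Among the J-domain proteins, which bring clients to Hspa5, Dnajc3 fell most. Its signals were 1677, 1607 and 1733 in the mineralizing cultures and 1309, 1104 and 1204 with AEBSF, well apart (1.39-fold; log2 fold change -0.47, with SE 0.072, limma adjusted p = 0.00179). Dnajb11 (ERdj3), which binds unfolded clients itself, read 3665, 3192 and 3360 against 2933, 2479 and 2788. This is a 1.25-fold fall (log2 fold change -0.32, with SE 0.073, limma adjusted p = 0.0154), a difference that did not pass when leaving out mineralizing culture 1 (limma adjusted p = 0.0702). Dnajb9 (ERdj4), which is known to favour disposal of misfolded clients and to hold back the sensor IRE1, read 1720, 1989 and 1613 against 1426, 1092 and 1640. AEBSF culture 3 lay inside the mineralizing range. Its log2 fold change of -0.37 (SE 0.125) was as large as that of Dnajb11 but did not pass (limma adjusted p = 0.0711), and without AEBSF culture 3 it was -0.50 and passed (limma adjusted p = 0.0191).

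Sdf2l1, a small lumenal protein that forms a complex with Dnajb11 and is induced by ER stress, fell more than any of the other 9 genes. It read 3789, 3740 and 3902 in the mineralizing cultures, a narrow range, and 2759, 2322 and 2348 with AEBSF. The fall was 1.54-fold (log2 fold change -0.63, with SE 0.068, limma adjusted p = 0.00028), and over all alternatives run its value stayed between -0.77 and -0.58. Manf, a lumenal Hspa5-binding protein that is also secreted, read 6625, 6673 and 7740 against 5920, 5837 and 5479. The fall was 1.22-fold (-0.28, with SE 0.066, limma adjusted p = 0.0166). Mineralizing culture 3 was the highest of the 6, and without it the log2 fold change was -0.21 and still passed (limma adjusted p = 0.0445).

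Hsp90b1, the ER member of the Hsp90 family, read 11655, 12079 and 12990 in the mineralizing cultures and 9764, 9437 and 9894 with AEBSF. The 3 AEBSF cultures lay close together below all mineralizing cultures (1.26-fold; log2 fold change -0.33, with SE 0.055, limma adjusted p = 0.00284). Calr, the soluble lectin and a calcium store of the lumen, read 7559, 7687 and 7381 against 6515, 6201 and 5476. It fell 1.25-fold (-0.32, with SE 0.064, limma adjusted p = 0.00852), with a wider spread in the AEBSF group.

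Canx, the membrane-bound partner of Calr, had the second smallest change of the 10 genes. Its brightest probe set read 9509, 9714 and 9875 in the mineralizing cultures and 8834, 8689 and 9238 with AEBSF, groups that did not overlap (log2 fold change -0.12, with SE 0.050, limma adjusted p = 0.134). A second read 7902, 7812 and 7632 against 6960, 7222 and 7351 (-0.12, limma adjusted p = 0.142). The dimmest read 3838, 3706 and 3842 against 3223, 3249 and 3258, and it passed (-0.23, with SE 0.050, limma adjusted p = 0.0128). The change on the dimmest probe set was 0.11 lower on the log2 scale than on the brightest (two-sided exact permutation p = 0.1, the smallest that 3 against 3 arrays can give). The brightest probe set passed after quantile normalization and after cyclic loess (limma adjusted p = 0.00851 and 0.02), which follow brightness, and scaled to hybridization controls (0.0293). The mean of the 3 probe sets also passed (0.0369).

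**Figure D2:**
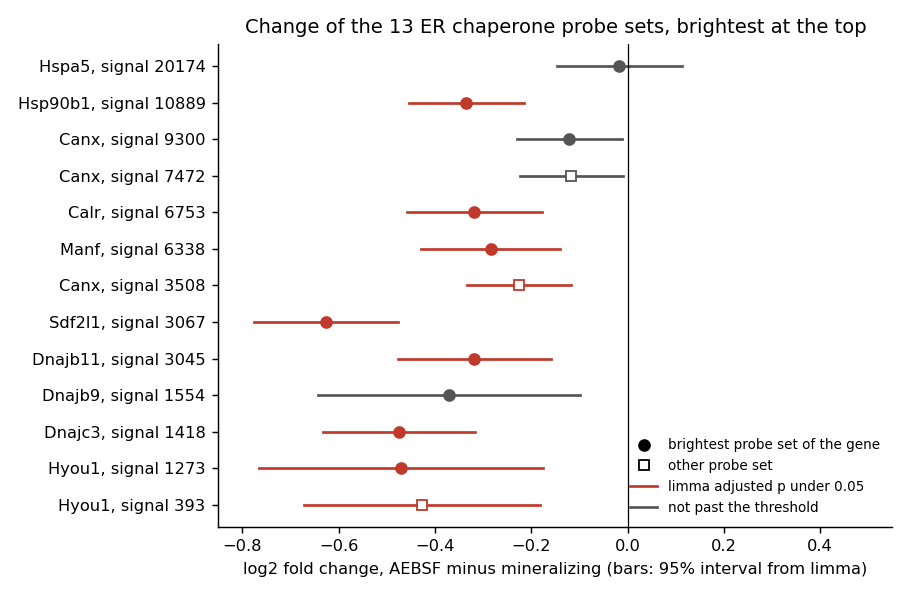
Log2 fold change (AEBSF minus mineralizing) with its 95% interval from limma for the 13 probe sets, ordered by mean signal over 6 arrays; filled circles are each gene's brightest probe set, open squares its others, and red marks a limma adjusted p under 0.05. The interval of Hspa5 spans 0, from -0.147 to 0.112, and Sdf2l1 lies farthest from 0 at -0.63.

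Whether the other genes changed by a different amount from Hspa5 was tested on the ratio to Hspa5 within each array. Scaling an array by 1 common factor cannot alter this ratio, but normalizations that follow brightness can. In 8 of 9 genes the 3 AEBSF ratios all lay below the 3 mineralizing ratios, each with a two-sided exact permutation p = 0.1, the smallest possible over 20 splits, and 0.113 after adjustment over the 9 comparisons. Thus 0 of 9 differences could pass 0.05 in this design. The 9 ratios share the same Hspa5 values and are not separate observations. The share of all tested genes whose ratio to Hspa5 shows this order was not computed. The difference from Hspa5 ran from -0.61 for Sdf2l1 to -0.10 for Canx on the log2 scale, with Hsp90b1 at -0.32 and Dnajc3 at -0.46. Dnajb9 was the exception, with overlapping ratios (-0.35, exact permutation p = 0.2).

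The size of the change followed the brightness of the probe set among these genes. Over the 10 genes the log2 fold change and the mean log2 signal had a Pearson correlation of 0.76 and a Spearman correlation of 0.72, brighter probe sets changing less. Without Hspa5 both were 0.62 (n = 9). These points share the 6 arrays and are given as a description. Over all 18625 tested probe sets the Pearson correlation was 0.025, and over the brightest 1863 of them it was 0.18. When the tested probe sets were divided into 10 equal groups by brightness, the SD of the log2 fold change narrowed from 0.374 in the dimmest group to 0.173 in the brightest, and the median SE from 0.252 to 0.058. The 5th percentile of the change moved from -0.59 to -0.27, and in the brightest group 8.91% were called lower and 15.2% higher, with a median log2 fold change of 0.05.

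Each probe set was also ranked within its own brightness group. Of the 13 probe sets, 9 fell in the brightest group of 1863, which starts at a signal of 2523. There Sdf2l1 had the 6th lowest log2 fold change, Hsp90b1 the 48th, Dnajb11 the 57th, Calr the 58th and Manf the 74th. The Canx probe sets ranked 135th, 293rd and 303rd and Hspa5 ranked 610th. Dnajc3 ranked 39th and Dnajb9 79th of 1862 in the next group down, and the brighter Hyou1 probe set 49th of 1863 in the group below it. The dimmer Hyou1 probe set, in a still dimmer group, ranked 101st of 1862.

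Hspa5 was 52nd of 18625 in brightness, at 44.9 times the median tested signal. Among the 200 brightest probe sets, a number chosen after the values were seen, the SD of the log2 fold change was 0.087, the median was 0.10 and 182 of 200 values lay above 0. The 5th and 95th percentiles were -0.05 and 0.23, and 2 probe sets were called lower and 19 higher. Hspa5, at -0.017, had the 16th lowest value of the 200. The lowest value among them was -0.40. After normalizations that follow brightness Hspa5 stood at -0.12 (quantile) and -0.09 (cyclic loess) and did not pass (limma adjusted p = 0.141 and 0.196). The correlation between change and brightness over the 10 genes was then 0.63 and 0.68 (Pearson). The part of probe brightness in the small change of Hspa5 was not tested.

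**Figure D3:**
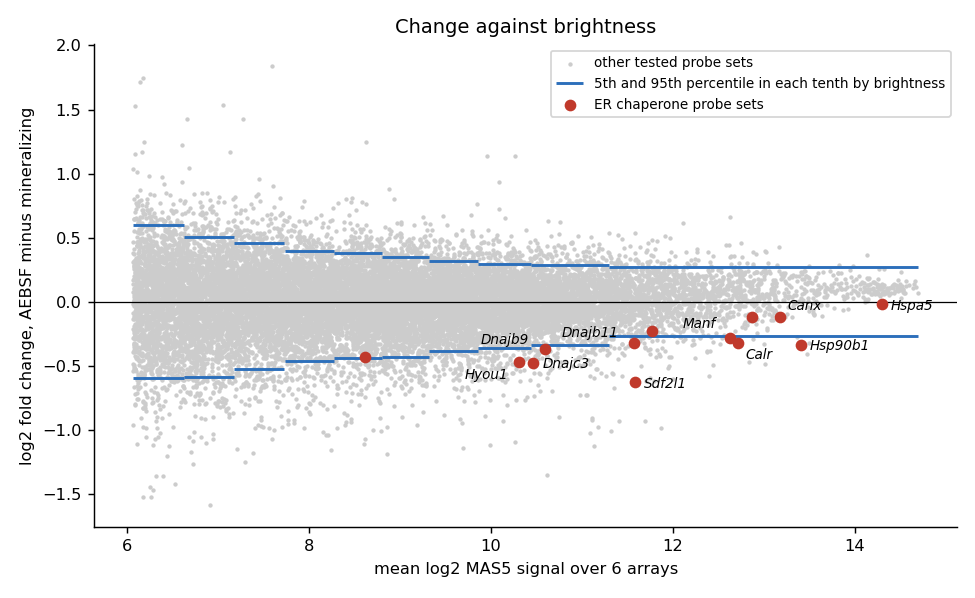
Log2 fold change against mean log2 MAS5 signal over 6 arrays for all 18625 tested probe sets (grey) and the 13 ER chaperone probe sets (red, named at each gene's brightest probe set); blue lines are the 5th and 95th percentiles in 10 equal groups by brightness. The blue band narrows from left to right, and Sdf2l1, Hsp90b1, Calr, Manf, Dnajb11, Dnajc3, Hyou1 and Dnajb9 lie at or below its lower edge while Canx and Hspa5 lie within it.

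Among the 10 genes, those with the full element had log2 fold changes from -0.47 (Dnajc3) to -0.017 (Hspa5), and those with element II had -0.47 (Hyou1) and -0.32 (Dnajb11). The genes with no exact match, Sdf2l1 and Dnajb9, had -0.63 and -0.37. Of 23 tested genes with either ER stress response element, 11 were called lower and 1 higher, with a median log2 fold change of -0.19. Leaving out the 7 ER chaperones among them, 6 of 16 were lower and 1 higher, with a median of -0.09. Over all 8326 tested genes with a promoter window, 766 were lower and 603 higher. The 6 were Ero1b, Herpud1, Ggct, Creld2, Pan2 and Xbp1. Of these, Ero1b, Herpud1, Creld2 and Xbp1 are also in the related ER lists below, so they are not independent of ER function. The Ero1b and Xbp1 calls did not hold with some arrays left out, as given below. The rise was Zfand2a, at 0.56 (limma adjusted p = 0.00387). These genes are named after their values were seen. For the core TGACGTGG, 10 of 79 tested genes were lower and 10 higher.

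Of 12 tested relatives of the same families and other lumenal folding proteins, 3 fell and 0 rose, with a median log2 fold change of -0.07. Over all tested genes 9.22% were called lower. Of these 12 genes, 0 fell with a constant prior and 1 after median centring. With any 1 of mineralizing cultures 1, 2 and 3 and AEBSF cultures 1 and 2 left out, 1 fell. Creld2, a lumenal protein that ER stress induces, fell from 9864 ± 1284 to 7019 ± 430 (SD over n = 3 per group; log2 fold change -0.48, with SE 0.085, limma adjusted p = 0.00405). Hspa13, another Hsp70 protein of the ER, and Dnajc10 (ERdj5), a J-domain reductase, fell by 0.27 and 0.19 on the log2 scale. Neither passed when any of mineralizing cultures 1, 2 and 3 and AEBSF cultures 1 and 2 was left out (limma adjusted p from 0.067 to 0.141). After median centring neither passed (limma adjusted p = 0.0566 for Hspa13 and 0.103 for Dnajc10). A second Dnajc10 probe set stood at -0.07. Sdf2, the paralogue of Sdf2l1 that ER stress does not induce, stood at 1239 ± 89.4 and 1101 ± 35.3 (-0.17, with SE 0.071, limma adjusted p = 0.14), and Cdnf, the paralogue of Manf, was not analysed here.

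Of 15 tested disulfide isomerases and oxidases, 4 fell and 0 rose, and 14 of 15 values lay below 0. With a constant prior 1 of the 15 fell. Over all 9864 tested genes 9.22% were called lower, and 4902 values lay below 0. Pdia4 fell 1.97-fold, more than any of the 10 chaperones, from 3262 ± 306 to 1658 ± 188 (log2 fold change -0.98, with SE 0.087, limma adjusted p = 7.57e-05). Pdia3, which works with Canx and Calr, and Pdia6, which works with Hspa5, fell by 0.29 and 0.27. A second Pdia3 probe set did not pass (-0.15, limma adjusted p = 0.418). Ero1b, an oxidase that recharges the isomerases, fell from 248 ± 42.3 to 134 ± 43.8 (-0.92, with SE 0.232), a difference that did not pass when leaving out mineralizing culture 2 or 3 (limma adjusted p = 0.0898 and 0.0626).

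In the glycoprotein folding cycle that Canx and Calr serve, 2 of 10 tested genes fell and 0 rose, and with a constant prior 1 fell. Over all tested genes 9.22% were called lower and 7.09% higher. Uggt2, a glucosyltransferase of the family that marks unfolded glycoproteins for another round, fell from 658 ± 27.2 to 454 ± 37.6 (-0.54, with SE 0.091, limma adjusted p = 0.00322). Prkcsh, a subunit of the glucosidase that trims the sugar, fell by 0.27, a difference that did not pass when leaving out AEBSF culture 2 or 3 or mineralizing culture 1, 2 or 3 (limma adjusted p = 0.0585, 0.0694, 0.0611, 0.0989 and 0.0728).

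Of 16 tested sensors and factors of the unfolded protein response, 3 fell and 1 rose, with a median of -0.06. Over all tested genes 9.22% were called lower and 7.09% higher. Atf6 fell from 2520 ± 129 to 1837 ± 81.1 (-0.46, with SE 0.061, limma adjusted p = 0.000905), and its second, dimmer probe set fell by 0.44 (limma adjusted p = 0.0295). Ddit3, the stress factor CHOP, fell by 0.32, and Xbp1, the factor activated by IRE1, by 0.20. The Xbp1 call did not hold when leaving out AEBSF culture 2 or mineralizing culture 1, 2 or 3 (limma adjusted p = 0.0772, 0.0646, 0.117 and 0.0592). It also did not hold after median centring (limma adjusted p = 0.0901). The sensor PERK (Eif2ak3) stood at 388 ± 43.1 and 301 ± 19.5 (-0.36, limma adjusted p = 0.0605), and it passed without mineralizing culture 3 (0.0437). Mbtps1, site-1 protease, stood at 1888 ± 121 and 1870 ± 124 (-0.01, limma adjusted p = 0.923), and Mbtps2, site-2 protease, at 1081 ± 80.2 and 904 ± 68.9 (-0.26, limma adjusted p = 0.0529, and 0.0284 without AEBSF culture 3). Creb3 rose by 0.29, a difference that did not pass when leaving out AEBSF culture 2 or mineralizing culture 1 or 2 (limma adjusted p = 0.0521, 0.0855 and 0.0764) or with scaling to hybridization controls (0.433). The sensor gene Ern1 was not analysed here.

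Genes that dispose of misfolded ER proteins were called in both directions. Over all tested genes 9.22% were called lower and 7.09% higher, and of these 13 genes 5 were lower and 4 higher. These counts were 4 and 2 without mineralizing culture 1, 2 and 2 without mineralizing culture 2, 2 and 3 without mineralizing culture 3, 3 and 3 without AEBSF culture 2, and 2 and 1 with a constant prior. When arrays were scaled to hybridization controls 7 were lower and 0 higher. Herpud1 and Sel1l, at the ER membrane, fell by 0.58 and 0.56, and the lumenal lectin Os9 fell by 0.41. The Os9 call did not hold when leaving out mineralizing culture 2 or 3 (limma adjusted p = 0.0514 and 0.0619), and its second probe set stood at 0.05. The cytosolic ubiquitin-conjugating enzyme Ube2g2 rose by 0.46 relative to the array, a rise not called with hybridization scaling (limma adjusted p = 0.107) or on its second probe set (0.35, limma adjusted p = 0.0842). Of 15 tested genes for entry into the ER, Spcs3 and Sec11c, subunits of signal peptidase, fell by 0.28 and 0.27 and 0 rose, a share near the 9.22% of all tested genes called lower (list median -0.05). Of 14 tested genes of retrieval and ER calcium, 2 fell and 1 rose, again near that background and the 7.09% called higher. Nucb2, a calcium-binding protein, fell from 267 ± 7.8 to 135 ± 1.87 (-0.99, with SE 0.134, limma adjusted p = 0.000941), and Itpr1, a calcium release channel, fell by 0.49. Rcn2, a lumenal calcium-binding protein, rose by 0.22. That difference did not pass when leaving out AEBSF culture 1 or mineralizing culture 1 (limma adjusted p = 0.0583 and 0.0816). It also did not pass with hybridization scaling or median centring (limma adjusted p = 0.637 and 0.0606).

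Chaperones outside the ER were mostly higher on this scale. This list held 22 tested genes: cytosolic and mitochondrial chaperones and co-chaperones, and the heat shock factor Hsf1. Of the 22, 10 rose, Hsf1 among them, and 1 fell, against 7.09% of all tested genes called higher. The median log2 fold change was 0.21, and 21 of 22 values lay above 0. The list is bright, with a median log2 signal of 12.43 against 9.42 for all tested genes. In the brightest of the 10 groups 15.2% of probe sets were called higher, with a median of 0.05. The list median was 0.16 after quantile normalization and 0.17 after cyclic loess. The part of brightness in these rises was not tested. The number that rose was 5 without mineralizing culture 1, 4 without mineralizing culture 2 and 1 with a constant prior, while the 22 values kept medians from 0.19 to 0.25 with 1 array left out. With arrays scaled to hybridization controls 1 rose and 1 fell and the median was 0.07. Hsph1, the cytosolic counterpart of Hyou1, rose from 5285 ± 154 to 7175 ± 280 (0.44, with SE 0.053, limma adjusted p = 0.000492), also on its second probe set (0.54). Bag3, an exchange factor for cytosolic Hsp70, rose by 0.48 and the heat shock factor Hsf1 by 0.32, and neither rise was called with hybridization scaling (limma adjusted p = 0.0703 and 0.292). Hspa4l, of the same family as Hsph1, fell by 0.47. The difference between ER and other chaperones was not itself tested.

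**Figure D4:**
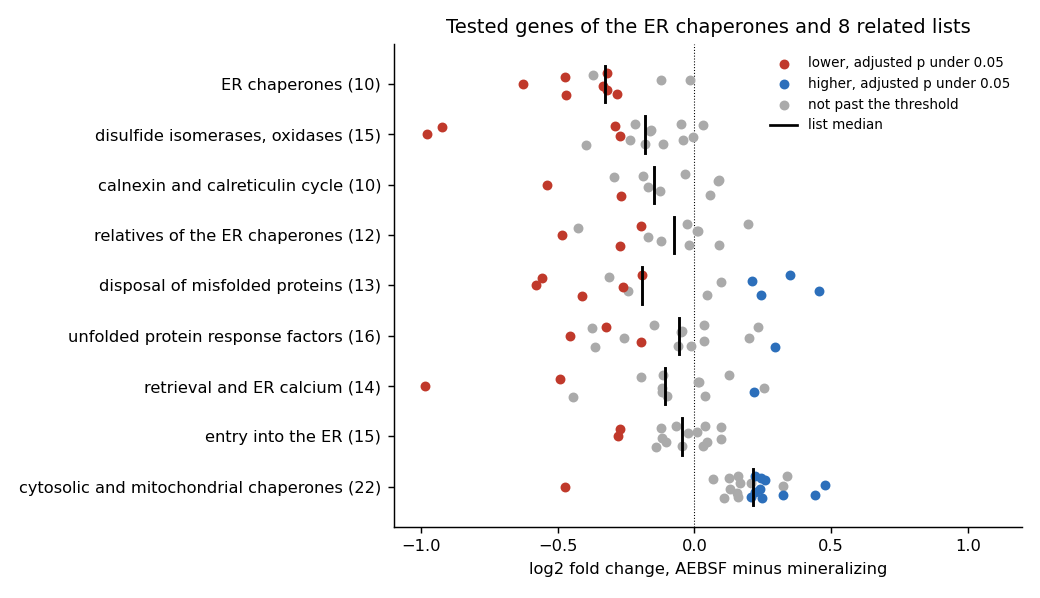
Log2 fold change (AEBSF minus mineralizing) of each tested gene, by its brightest probe set, in the ER chaperones and 8 related lists, with the number tested in parentheses; red and blue mark genes called lower and higher and black bars are list medians. The ER chaperones have the lowest median of these lists, -0.33, and the cytosolic and mitochondrial chaperones the highest, 0.21; vertical scatter within a list has no meaning.

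The cultures carried osteoblast markers. Of 10 listed, 8 were measured and 7 were bright enough to test, among them Ibsp, Col1a2 and Alpl, while Bglap lay below the filter. The summed signal of the 8 was 27910 to 29255 in the mineralizing cultures and 25374 to 26296 with AEBSF, and 3 of the 7 were called lower (Col1a2, Phex and Col1a1, with log2 fold changes of -1.13, -0.73 and -0.67) and 0 higher. Over all tested genes 9.22% were called lower and 7.09% higher. The part of these osteoblast markers in the chaperone results was not tested. Markers of macrophages and osteoclasts, endothelium, adipocytes, chondrocytes and muscle were dim: 3 of 24 measured passed the filter, and no list summed to more than 311 on any array. The 3′ to 5′ signal ratio of the Gapdh control probe sets was 1.02 to 1.06 in the mineralizing and 1.05 to 1.08 in the AEBSF arrays, and that of beta-actin 1.52 to 1.54 and 1.46 to 1.61, so the groups overlapped in both.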

How the data were processed

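For each array the authors deposited 1 linear intensity per probe set, which the submitters' processing notes tie to MAS5 and GCOS. There were 6 arrays, 1 per culture and 3 per group, grouped by sample title. The software versions and the target of the scaling were not stated in the labels. The mean signal after trimming 2% at each end was 500.1 to 500.2 on every array, so the authors had scaled the arrays to a common level before deposit. At most 2 of 31099 values were equal between any pair of arrays. Of 31042 probe sets other than 57 controls, 20826 had exactly 1 symbol, 436 several and 9780 none here; symbols were updated through Entrez identifiers to RefSeq (GRCr8).

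The log2 signals, with no constant added, were fitted in R 4.3.3 with limma 3.58.1 (lmFit, eBayes with a variance trend) for AEBSF minus mineralizing. Tested were 18625 probe sets with a mean above the 40th percentile (signal 67.2), with Benjamini-Hochberg adjustment over all of them and the threshold at 0.05. Each gene took its brightest probe set over all 6 arrays. Same-numbered cultures did not deviate together (correlations 0.01, -0.12 and -0.04). The design text calls the cultures triplicates, so the p-values start from the spread between cultures. In limma the variance of each probe set is also drawn toward a trend over all tested probe sets. The limma p-values therefore do not measure that spread alone, and they depend on the prior. The number of arrays limits the precision.

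The 10 genes and the related lists were chosen with earlier results of these data known. Named were all 10 genes, from each related list the 4 called genes that changed most (2 of the brightest where under 2 passed) and 8 genes fixed by name. Promoter letters are from RefSeq; protein sequences were not used here. Alternatives were quantile, median, cyclic loess and hybridization-control scaling, an added constant of 16 or 64, no filter or the 60th percentile, constant or robust priors, a replicate block, averaging all probe sets of a gene, and leaving out each array.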

Additional observations from a re-analysis of the deposited data

How the results depend on the processing

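The count of probe sets past the threshold was 2495 (1380 lower, 1115 higher); it was 885 with a constant variance prior and 1203 to 2257 with 1 array left out. The count of ER chaperones was 7 lower; it was 2 with a constant prior, 5 to 7 with 1 array left out, and 6 to 9 under all other alternatives run. Hspa5 ran from -0.062 to 0.0099 and Mbtps1 from -0.056 to 0.042 with 1 array left out, neither passing. Scaling to hybridization controls gave 2457 probe sets lower and 119 higher. With the replicate number as a block, 1802 probe sets and 7 ER chaperones passed; the numbers do not pair the cultures. Of 180 values of single ER chaperones under alternatives, 159 kept their direction and their side of the threshold, 12 lost it, 6 gained it and 3 changed sign, all 3 of Hspa5. With 3 arrays per group, the 95% interval of Canx, one of the brightest, ran from -0.230 to -0.0123 and still did not pass.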
